A study of Mus musculus with 6 samples.

Results

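The transcripts of 6 cadherin genes (Cdh2, Cdh3, Cdh4, Cdh11, Cdh13 and Cdh15) and of Gja1, the gene for connexin 43, were compared between the genotypes. They were chosen by gene symbol, and all 7 were among the 22984 genes of the deposited table. The series measured RNA from cultured mouse bone marrow mesenchymal stem cells, the adherent stromal cells of marrow, with 3 libraries of genotype Grx2-/- and 3 of genotype Grx2+/+. No treatment, age, sex, strain or time in culture is given in the labels, which also do not say how the Grx2 deletion was made, or whether it was limited to some cells. Nothing says that the replicates are separate animals or cultures, so a p-value here reflects the scatter among 6 libraries that may be technical. O-BMSCs is the name used in the design text, with no expansion of its first letter. Values are FPKM, fragments per kilobase of gene scaled to library depth, which correct for gene length and allow levels to be compared between genes.

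Cadherins are calcium-dependent adhesion proteins that bind their like on the next cell. Classical cadherins pass through the membrane and hold β-catenin and p120 catenin on their inner side, of which β-catenin is part of the tie to actin. Type I members (Cdh2, Cdh3, Cdh4 and the more divergent Cdh15) and type II members (Cdh11) differ in the residues that lock partner molecules together, and Cdh13 has no transmembrane segment and is held in the membrane by a GPI anchor. Connexin 43 forms hexameric channels that dock between cells as gap junctions and pass ions and small metabolites. In bone, N-cadherin (Cdh2), cadherin-11 and connexin 43 are the best known contact proteins of the osteoblast lineage.

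The targeted gene matched the genotype labels. Glrx2, which encodes glutaredoxin 2, was at 0 to 0.00461 FPKM in Grx2-/- libraries and at 3.54 to 3.74 FPKM in Grx2+/+ libraries. Depth, worked back from the FPKM steps, was 40797879 to 41794919 reads per library, of which 99.7% to 99.8% lay in genes of the deposited table. It is therefore not the number of reads sequenced. All 14 stromal markers listed averaged at least 1 FPKM over the 6 libraries. By the test given below, 7 were called higher and 6 lower in Grx2-/- libraries, beside 42.7% and 24.6% of all tested genes. Thy1, a surface marker of stromal cells, was at 165 to 170 FPKM in Grx2-/- libraries and 9.51 to 13.6 FPKM in Grx2+/+ libraries. Lepr, a receptor that marks marrow stroma, was at 0.0296 to 0.0382 FPKM in Grx2-/- libraries and 3.42 to 4.48 FPKM in Grx2+/+ libraries. Other cell types were represented too: 15 macrophage markers summed to 2750 to 3730 FPKM in Grx2-/- libraries and 1640 to 1770 FPKM in Grx2+/+ libraries, with none at 0, and 12 neutrophil markers summed to 4.4 to 6.83 FPKM in Grx2-/- libraries, with 1 at 0 in all 3, and 927 to 2690 FPKM in Grx2+/+ libraries. In bulk RNA, fewer cells of a type and less RNA per cell cannot be told apart. Grx2-/- replicate 1 and Grx2+/+ replicate 2 lay furthest from the other libraries of their genotype, with root mean square log2 differences of 0.16 and 0.156, against 0.0836 to 0.139 for the other 4 libraries.

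Gja1 and Cdh15, both lower in Grx2-/- libraries, have an entry in the RefSeq promoter table of GRCm38.p6, and their sequences are given here as the stretch in which the transcripts begin. Each runs from 250 bases before to 50 bases after the annotated start, on the plus strand, at chr10:56377050-56377349 for Gja1 and chr8:122848124-122848423 for Cdh15. Capitals mark every match to the AP-1 motif TGAGTCA on either strand and to the E-box CANNTG, which reads alike on both strands.
Gja1: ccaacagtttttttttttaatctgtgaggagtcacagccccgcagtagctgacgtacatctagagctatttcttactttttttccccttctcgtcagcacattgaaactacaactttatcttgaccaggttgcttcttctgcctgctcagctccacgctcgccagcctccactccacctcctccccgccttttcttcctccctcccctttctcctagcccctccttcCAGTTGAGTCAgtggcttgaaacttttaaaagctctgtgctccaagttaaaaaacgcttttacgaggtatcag
Cdh15: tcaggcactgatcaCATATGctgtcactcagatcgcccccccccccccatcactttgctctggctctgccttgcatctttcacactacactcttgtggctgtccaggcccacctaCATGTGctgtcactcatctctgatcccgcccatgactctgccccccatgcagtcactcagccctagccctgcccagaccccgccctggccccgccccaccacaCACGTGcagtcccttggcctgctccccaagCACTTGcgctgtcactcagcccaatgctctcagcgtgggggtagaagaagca

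AP-1 is a dimer of FOS and JUN proteins, and the E-box is the core read by basic helix-loop-helix and Snail or ZEB factors, including the muscle factor MyoD. The Gja1 window held 1 AP-1 match, whose first base lay at position -19 from the start, and it shared its leading TG with 1 E-box (CAGTTG) that began at -23. The Cdh15 window held 4 E-boxes, beginning at -236 (CATATG), -135 (CATGTG), -32 (CACGTG) and -2 (CACTTG), and no AP-1 match. Of 32851 promoters of the same length in the table, 5.2% held the AP-1 motif and 72.3% held an E-box. A match describes the letters only, and binding was not measured.

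**Figure D1:**
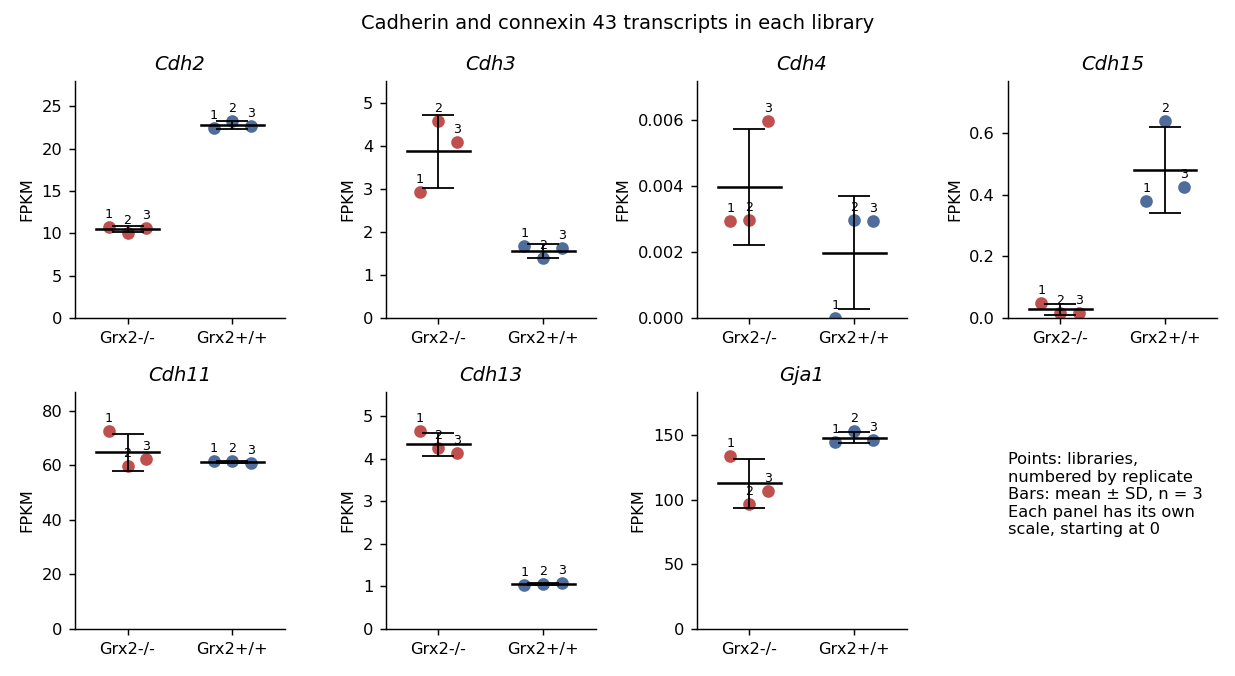
FPKM (vertical axes, each from 0) of each member in 3 Grx2-/- and 3 Grx2+/+ libraries; points are libraries numbered by replicate, and bars are means ± SD. Cdh2, Cdh15 and Gja1 lay lower and Cdh3 and Cdh13 higher in every Grx2-/- library than in any Grx2+/+ library, while the genotypes overlapped for Cdh11 and Cdh4.

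The members did not move as a block. Of the 7, 5 had a mean of at least 1 FPKM over the 6 libraries and were tested; Cdh4 and Cdh15 fell under that level and are described by their reads. In Grx2-/- libraries, Cdh3 and Cdh13 rose, Cdh2 and Gja1 fell, and Cdh11 did not pass (limma on log2(FPKM + 1), two-sided, Benjamini-Hochberg adjusted p under 0.05 over all 11083 tested genes). The same rule called 67.4% of all tested genes, 42.7% higher and 24.6% lower, so a count of 4 in 5 is near the background of this comparison. The genotypes did not overlap for 4 of the 5 tested members, against 73.1% of tested genes. The median log2 fold change over the 5 was 0.07, and that of all tested genes 0.09.

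By level, Gja1 led in both genotypes, followed by Cdh11 and Cdh2, and the order below these differed. In Grx2-/- libraries Cdh13 averaged 4.34 ± 0.272 FPKM and Cdh3 3.88 ± 0.856 FPKM (SD, n = 3 each), and their ranges overlapped. In Grx2+/+ libraries Cdh3 averaged 1.57 ± 0.154 FPKM and Cdh13 1.05 ± 0.0125 FPKM, with no overlap. Gja1 stood above 98% of the genes in the table by its mean over all libraries, Cdh11 above 95.7% and Cdh2 above 84.6%. Cdh15 and Cdh4 were last in both genotypes.

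Cdh2 encodes N-cadherin, the type I cadherin of mesenchymal, neural and muscle cells. It was at 10.8, 10.1 and 10.6 FPKM in Grx2-/- replicates 1 to 3, against 22.4, 23.3 and 22.7 FPKM in Grx2+/+ replicates 1 to 3. The 3 libraries of each genotype lay close together, with coefficients of variation of 3.25% in Grx2-/- and 2.06% in Grx2+/+, and the genotypes were far apart. Cdh2 fell by 1.05 on the log2(FPKM + 1) scale (SE 0.04, 95% interval -1.14 to -0.95, limma adjusted p = 2.43e-07), and the mean level in Grx2-/- was 0.461 times that in Grx2+/+. A fall of at least 2-fold on this scale was called for 3.54% of tested genes, and 90.7% of tested genes had a smaller change than Cdh2. Of 19 osteoblast markers listed, 13 were tested and all 13 were called lower in Grx2-/- libraries, beside 24.6% of all tested genes. With no filter on low values, 14 of the 19 were called lower, beside 15.7% of all genes. The part of osteoblast transcripts in the Cdh2 result was not tested.

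Cdh3 encodes P-cadherin, a type I cadherin best known from basal epithelium and placenta. It was at 2.93, 4.60 and 4.11 FPKM in Grx2-/- replicates 1 to 3, against 1.67, 1.39 and 1.64 FPKM in Grx2+/+ replicates 1 to 3. All Grx2-/- libraries were above all Grx2+/+ libraries, but Grx2-/- replicate 1 was well under the other two. Cdh3 rose by 0.91 on the log2(FPKM + 1) scale (SE 0.13, 95% interval 0.62 to 1.2, limma adjusted p = 0.000314), and its mean was 2.48 times the Grx2+/+ mean, or 2.78 times without Grx2-/- replicate 1. Of 15 epithelial markers in the table, 11 had at most 10 reads in every library. Epcam had 0 to 1 reads in Grx2-/- libraries and 1 to 3 in Grx2+/+ libraries, and Krt5 had 0 in all Grx2-/- libraries and 0 to 1 in Grx2+/+ libraries. Cdh1, E-cadherin, is not among these 15. It had 5 to 13 reads in Grx2-/- libraries and 9 to 40 in Grx2+/+ libraries. The other 4 of the 15 markers were mixed. Krt19, a simple epithelial keratin, fell and was at 2.8 to 4.05 FPKM in Grx2-/- libraries and 6.19 to 8.21 FPKM in Grx2+/+ libraries, and Sfn (14-3-3σ) was at 1.54 to 2.13 FPKM in Grx2-/- libraries and 2.08 to 3.04 FPKM in Grx2+/+ libraries, not passing the test. Of the basal epithelial genes named here, Krt5 was not higher in Grx2-/- libraries. Trp63 and Krt15, under the minimum level, were higher in every Grx2-/- library, as Cdh3 was. Trp63, which encodes p63, had 86 to 119 reads in Grx2-/- libraries and 18 to 47 in Grx2+/+ libraries. Krt15 had 7 to 14 reads in Grx2-/- libraries and 0 in Grx2+/+ libraries. The 15 markers summed to 4.96 to 6.61 FPKM in Grx2-/- libraries, with 2 at 0 in all 3, and 8.68 to 11.0 FPKM in Grx2+/+ libraries, with 5 at 0 in all 3. Within the Grx2-/- libraries Cdh3 followed the order of the summed macrophage markers, which were 2750, 3730 and 3370 FPKM in replicates 1 to 3, but within the Grx2+/+ libraries the order was reversed, with sums of 1640, 1770 and 1660 FPKM in replicates 1 to 3. The part of macrophage and epithelial transcripts in the result was not tested.

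Cdh13 encodes T-cadherin, the GPI-anchored member, which lacks the catenin-binding tail and is known as a receptor for adiponectin and LDL on vascular cells. It was at 4.64, 4.24 and 4.13 FPKM in Grx2-/- replicates 1 to 3, against 1.04, 1.05 and 1.07 FPKM in Grx2+/+ replicates 1 to 3. Spread within a genotype was small and the genotypes did not overlap. It had the largest change of the 5 tested members, a rise of 1.38 on the log2(FPKM + 1) scale (SE 0.058, 95% interval 1.24 to 1.51, limma adjusted p = 3.87e-07), and its mean was 4.12 times the Grx2+/+ mean. A rise of at least 2-fold on this scale was called for 6.49% of tested genes, and 94.3% of tested genes had a smaller change. Of the endothelial markers listed, 7 were tested: 0 rose, 6 fell and 1 did not pass (Vwf, von Willebrand factor, at 0.13). Over all tested genes, 42.7% were called higher and 24.6% lower. For these 7 markers, voom on the recovered reads had 1 higher and 6 lower. Tek, the TIE2 receptor, under the minimum level, was higher in Grx2-/- at 0.555 to 0.647 FPKM, against 0.252 to 0.284 FPKM in Grx2+/+. The summed level of all 15 was 5.84 to 6.58 FPKM in Grx2-/- libraries, with 2 at 0 in all 3, and 29.9 to 36.4 FPKM in Grx2+/+ libraries, with none at 0. Of the smooth muscle and pericyte markers, 11 of 12 tested genes were called lower, beside the same 24.6% of all tested genes. The part of endothelial, smooth muscle and pericyte transcripts in the Cdh13 result was not tested.

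Cdh11 encodes cadherin-11, the type II cadherin first described in osteoblasts. It was at 72.4, 59.6 and 62.3 FPKM in Grx2-/- replicates 1 to 3, against 61.4, 61.5 and 60.9 FPKM in Grx2+/+ replicates 1 to 3. Grx2-/- replicate 2 lay under and replicates 1 and 3 above the Grx2+/+ range, so the genotypes overlapped. The log2 fold change was 0.07 (SE 0.066, limma adjusted p = 0.349), with a 95% interval of -0.08 to 0.23, which spans ratios of FPKM + 1 from 0.947 to 1.17. Without Grx2-/- replicate 1 the ratio of means was 0.995. A change of 2-fold in either direction lies outside that interval.

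Cdh15 encodes M-cadherin, a cadherin of satellite cells and myoblasts. It was at 0.0505, 0.0171 and 0.0172 FPKM in Grx2-/- replicates 1 to 3 (6, 2 and 2 reads), against 0.379, 0.640 and 0.424 FPKM in Grx2+/+ replicates 1 to 3 (44, 75 and 50 reads). The genotypes did not overlap, and Grx2+/+ replicate 2 was the highest library. Summed reads were 10 in Grx2-/- and 169 in Grx2+/+, a Grx2+/+ to Grx2-/- ratio of 17 (exact 95% interval 9.0 to 36.0, for counting error alone). An exact permutation test over the libraries gave p = 0.1 (two-sided), the smallest that 3 against 3 allows, and limma without the filter gave -0.52 on the log2(FPKM + 1) scale with adjusted p = 0.0017, where 15.7% of genes were called lower.

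Skeletal muscle transcripts, taken as a sum, were lower in every Grx2-/- library than in any Grx2+/+ library, as Cdh15 was. The 26 muscle markers in the table summed to 3.67, 5.19 and 5.43 FPKM in Grx2-/- replicates 1 to 3, against 9.37, 100.5 and 36.2 FPKM in Grx2+/+ replicates 1 to 3. Cdh15 had the same order as this sum among the Grx2+/+ libraries, but it spanned a narrower range there. Among the Grx2-/- libraries the order was not shared. Cdh15, at 6, 2 and 2 reads in replicates 1 to 3, was highest in replicate 1, where the sum was lowest. Of the 6 muscle markers tested, 0 rose and 5 fell, beside 42.7% of all tested genes called higher and 24.6% lower. Without Grx2+/+ replicate 2, 3 were tested and 2 fell. With no filter on low values, 0 of the 26 rose and 3 fell. The filter itself favored a fall for markers that passed it only through Grx2+/+ libraries. Myog, for example, was at 0 to 0.0164 FPKM in Grx2-/- libraries and 0.315 to 6.1 FPKM in Grx2+/+ libraries. Myod1, the myoblast-determining factor, had 0 reads in each Grx2-/- library and 3, 196 and 33 reads in Grx2+/+ replicates 1 to 3, while Pax7, the satellite cell factor, had 0 in each Grx2-/- library and 0, 1 and 0 in Grx2+/+ replicates 1 to 3. Of the 26 markers, 5 were at 0 in all Grx2-/- libraries and none in all Grx2+/+ libraries. Without Grx2+/+ replicate 2, the richest in muscle transcripts, the Grx2+/+ mean of Cdh15 was 14.2 times the Grx2-/- mean. The part of muscle transcripts in the Cdh15 result was not tested.

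**Figure D2:**
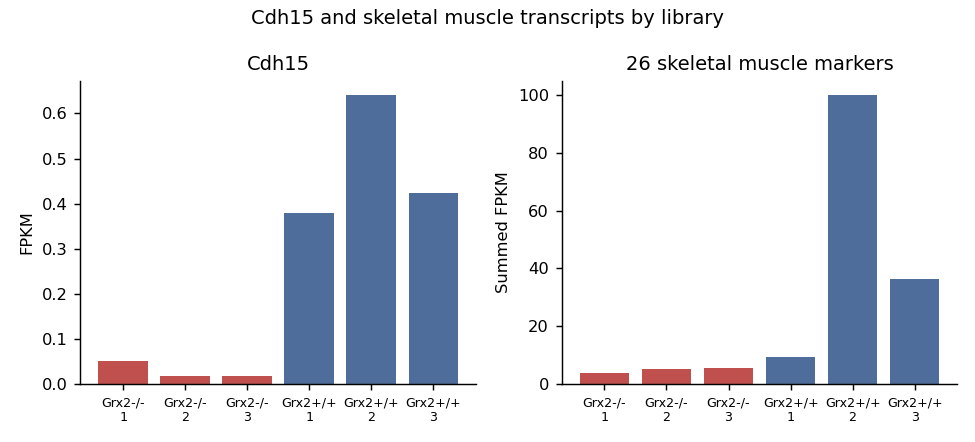
FPKM of Cdh15 (left) and summed FPKM of the 26 skeletal muscle markers (right) in each library; bars are single libraries, Grx2-/- replicates 1 to 3 and then Grx2+/+ replicates 1 to 3. Grx2+/+ replicate 2 is highest in both, and Grx2+/+ replicate 1 has 0.379 FPKM of Cdh15 with a muscle sum of 9.37 FPKM.

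Cdh4 encodes R-cadherin, a type I cadherin of retina and brain. It had 1, 1 and 2 reads in Grx2-/- replicates 1 to 3, against 0, 1 and 1 reads in Grx2+/+ replicates 1 to 3. No library exceeded 3 reads, and a difference between the genotypes was not detectable at this depth.

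Gja1 was the most abundant member. It was at 134, 96.9 and 107 FPKM in Grx2-/- replicates 1 to 3, against 145, 153 and 146 FPKM in Grx2+/+ replicates 1 to 3. The genotypes did not overlap, but Grx2-/- replicate 1 was closer to the Grx2+/+ libraries than to replicate 2, and the coefficient of variation was 17% in Grx2-/- and 3.1% in Grx2+/+. Gja1 fell by 0.40 on the log2(FPKM + 1) scale (SE 0.1, 95% interval -0.64 to -0.17, limma adjusted p = 0.0086), with a Grx2-/- mean 23.9% under the Grx2+/+ mean. Without Grx2-/- replicate 1 the fall was 0.54 and the Grx2-/- mean was 31.1% lower. The size of this change was ordinary here, since 68.6% of tested genes had a smaller one. Among Grx2-/- libraries Gja1 ran opposite to the summed macrophage markers, being highest in replicate 1, where these were lowest, while among Grx2+/+ libraries both had the same order; their part in the result was not tested.

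**Figure D3:**
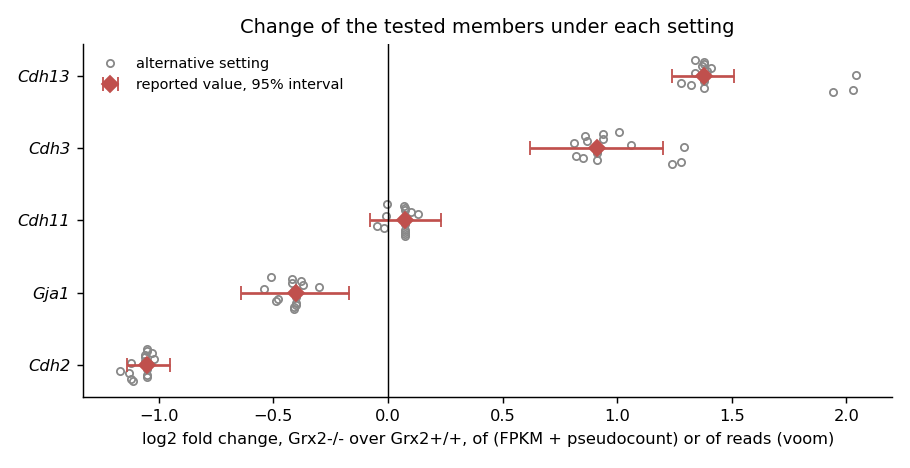
Log2 fold change, Grx2-/- over Grx2+/+, of the 5 tested members (horizontal axis), as reported with its 95% interval (diamonds) and under each alternative setting (open circles, spread vertically for view). Cdh13 and Cdh3 lie above 0 in every setting that tested them, which the minimum of 5 FPKM did not, and Gja1 and Cdh2 lie below 0 in all, whereas Cdh11 lies on both sides of 0; the circles near 2 for Cdh13 are the settings with a smaller pseudocount or with reads.

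The make-up of the cadherin pool was also compared, over the 6 member cadherins and the 10 other classical cadherins in the table. Their summed level was 91.7, 79.4 and 82.4 FPKM in Grx2-/- replicates 1 to 3, against 95.2, 95 and 94.5 FPKM in Grx2+/+ replicates 1 to 3. Cdh11 made up 76.6 ± 2.12% of it in Grx2-/- and 64.5 ± 0.153% in Grx2+/+ (SD, n = 3 each), although its own level did not pass the test. Cdh2 made up 12.5 ± 0.666% in Grx2-/- and 24.0 ± 0.5% in Grx2+/+. Cdh13 made up 5.14 ± 0.181% in Grx2-/- and 1.11 ± 0.02% in Grx2+/+, and Cdh3 4.66 ± 1.33% in Grx2-/- and 1.65 ± 0.162% in Grx2+/+.

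The ratio of Cdh2 to Cdh11 does not depend on scaling between libraries. It was 0.149, 0.170 and 0.171 in Grx2-/- replicates 1 to 3, against 0.365, 0.379 and 0.372 in Grx2+/+ replicates 1 to 3, with no overlap (exact permutation test, two-sided, p = 0.1, the smallest that 3 against 3 allows). The ratio of Cdh13 to Cdh2 was 0.413 ± 0.0222 in Grx2-/- and 0.0463 ± 0.000971 in Grx2+/+.

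**Figure D4:**
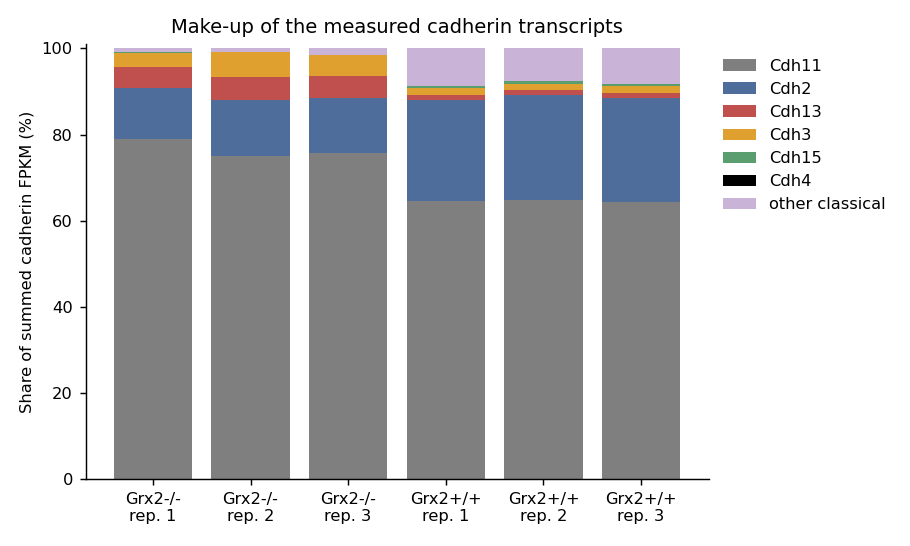
Share (%) of the summed FPKM of 16 classical and GPI-anchored cadherins held by each member and by the other classical cadherins, in each library (bars). Cdh11 holds 75.1% to 79.0% in Grx2-/- libraries and 64.4% to 64.7% in Grx2+/+ libraries, and the share of the other classical cadherins is 0.969% to 1.47% in Grx2-/- libraries and 7.54% to 8.75% in Grx2+/+ libraries.

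Of the 13 other classical cadherins listed, 10 were in the table and only Cdh5 reached the minimum level. Cdh5, the VE-cadherin of endothelium, was at 0.0539 ± 0.00979 FPKM in Grx2-/- and 5.46 ± 0.658 FPKM in Grx2+/+. Cdh10, a type II cadherin named after its value was seen, had 7, 6 and 13 reads in Grx2-/- replicates 1 to 3, against 280, 239 and 256 reads in Grx2+/+ replicates 1 to 3. Among large and atypical cadherins, 5 of 21 in the table were tested, of which 2 rose and 3 fell. Those that fell include Ret (-1.88 ± 0.07), a receptor kinase with cadherin-like domains rather than an adhesion cadherin. Fat4, a giant cadherin of planar polarity, rose (1.17 ± 0.056, log2 fold change ± SE), and its binding partner Dchs1 fell (-1.07 ± 0.057). Of 12 protocadherins, 3 were tested, and 2 rose: Pcdh7 (1.98 ± 0.11) and Pcdh18 (1.35 ± 0.096). With no filter on low values, 4 of the 12 were called higher and 5 lower, with a median of 0.00. Over all 22984 genes, that setting called 5499 higher and 3614 lower. Each list was small, and its counts stand beside 42.7% of all tested genes called higher and 24.6% called lower. Its median is given only beside the 0.09 of all tested genes: -0.32 for the tested atypical cadherins, Ret included, and 1.35 for the 3 tested protocadherins.

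The catenins and linkers on the inner side of cadherins moved both ways, as did all tested genes, with 42.7% called higher and 24.6% lower. Of 17 listed, 12 were tested, of which 5 rose, 4 fell and 3 did not pass, with a median of 0.08; median-of-ratios scaling turned these to 4 higher and 5 lower with a median of -0.01, and quantile normalization to the same counts with a median of -0.02. Ctnnd1, p120 catenin, which holds classical cadherins at the surface, was at 18.3 ± 0.797 FPKM in Grx2-/- and 38.0 ± 1.96 FPKM in Grx2+/+ (-1.02 ± 0.05, limma adjusted p = 8.52e-07). Jup, plakoglobin, also fell (-0.83 ± 0.051), while Ctnnbip1, an inhibitor of β-catenin binding to TCF, rose (1.04 ± 0.06). Ctnna1, αE-catenin, had a log2 fold change of -0.02 and did not pass. Of 9 nectins and nectin-like molecules, 5 were tested, of which 3 rose and 1 fell, with a median of 0.29; with quantile normalization 3 rose and 2 fell. Of 12 desmosomal genes, 8 were in the table and 2 were tested: Perp rose (2.13 ± 0.09) and Pkp2 fell (-1.51 ± 0.05).

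Proteases and transcription factors that act on cadherins or their genes were also listed. Their counts stand beside 42.7% of all tested genes called higher and 24.6% called lower. Of 15 proteases and endocytic regulators, 13 were tested, of which 8 rose, 2 fell and 3 did not pass, with a median of 0.35; with either rescaling 7 rose and 3 fell. Pcsk6, a proprotein convertase, rose (2.83 ± 0.08), and Furin, which removes the cadherin propeptide, fell (-0.59 ± 0.032). Adam10, the main sheddase of N-cadherin, had a log2 fold change of 0.02 and did not pass. Of 12 transcription factors linked to cadherin switching, 11 were tested, of which 5 rose, 5 fell and 1 did not pass, with a median of -0.04; with quantile normalization 4 rose. Twist1 rose (0.53 ± 0.041) and Foxc2 fell (-0.90 ± 0.078).

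The other connexins were far less abundant than Gja1. Counts for them and for the partners below stand beside 42.7% of all tested genes called higher and 24.6% called lower. Of 19 listed, 15 were in the table and 5 were tested, of which 4 rose, 0 fell and 1 did not pass, with a median of 0.28; with quantile normalization 3 rose. Gja5, connexin 40, just missed the minimum level with a mean of 0.968 FPKM over all libraries, and was at 0.226, 0.275 and 0.261 FPKM in Grx2-/- replicates 1 to 3, against 1.87, 1.66 and 1.53 FPKM in Grx2+/+ replicates 1 to 3. Gja5 was called lower where it was fitted, at -1.10 with no filter (limma adjusted p = 5.86e-05), where 5 connexins rose and 1 fell, and at -1.08 without Grx2-/- replicate 1 (limma adjusted p = 1.72e-05), where 4 rose and 1 fell. Gjb2, connexin 26, was at 11.4, 22.9 and 18.6 FPKM in Grx2-/- replicates 1 to 3, against 3.25, 2.51 and 2.46 FPKM in Grx2+/+ replicates 1 to 3 (2.27 ± 0.22, limma adjusted p = 3.71e-05). It was lowest in Grx2-/- replicate 1, as Cdh3 was. Gjb5 rose by 1.23. Of 3 pannexins, which form single-membrane channels, 2 were tested: Panx1 rose (0.22) and Panx3, a pannexin of osteoblasts and cartilage, was at 0.112 ± 0.0347 FPKM in Grx2-/- and 6.06 ± 0.366 FPKM in Grx2+/+ (-2.67 ± 0.062). Of 22 partners and regulators of connexin 43, 21 were tested, of which 10 rose, 6 fell and 5 did not pass, with a median of 0.10. With median-of-ratios scaling these were 9 and 7, and with quantile normalization 9 and 8. Cav1, caveolin-1, rose (2.03 ± 0.082), Dbn1, the actin-binding drebrin, fell (-1.0 ± 0.04), and Tjp1, the scaffold ZO-1 that binds the tail of connexin 43, named after its value was seen, was at -0.74.

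**Figure D5:**
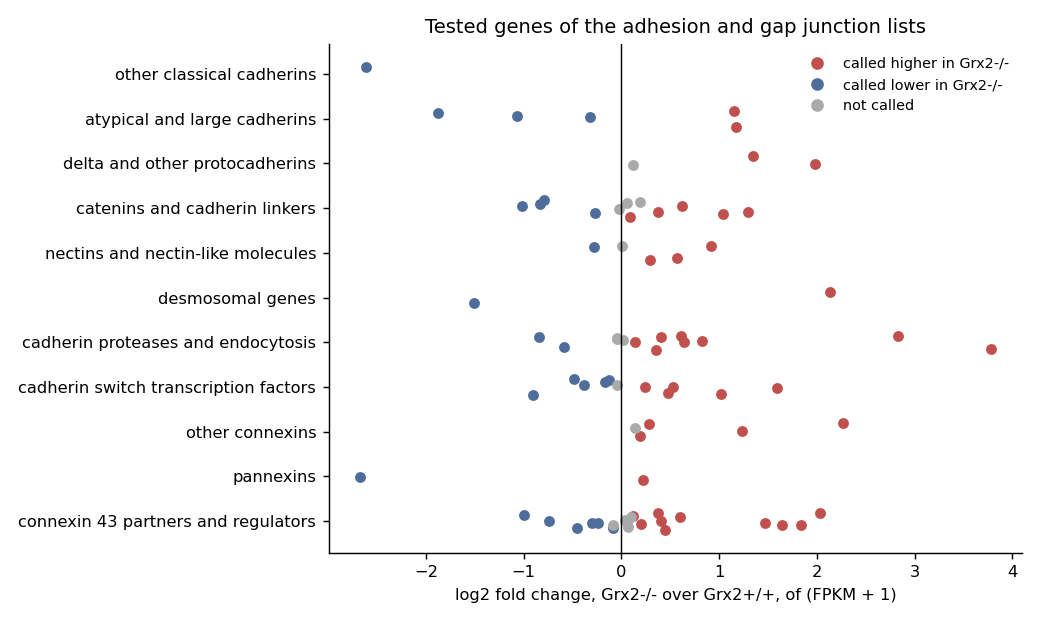
Log2 fold change, Grx2-/- over Grx2+/+, of (FPKM + 1) for each tested gene (points) of 11 lists of adhesion and gap junction genes; color gives the call. Most lists hold genes on both sides of 0, and the connexin list has 4 called higher and 0 called lower among genes past the 1 FPKM minimum, which leaves out Gja5, lower in Grx2-/-.

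The genes most correlated with each tested member were sought among genes with a change of at least 2-fold, by Pearson correlation of log2(FPKM + 1) over the 6 libraries. The 6 libraries share the genotype split, so a high value mostly repeats that split. Over all 11082 other tested genes, whatever their change, 870 exceeded 0.99 with Cdh13, 503 with Cdh2, 46 with Cdh3, 13 with Gja1 and 0 with Cdh11, and 200 exceeded 0.95 with Gja1 and 29 with Cdh11. Among the 2-fold genes, the highest with Cdh2 were Lif (0.9998), Asb4 (0.9995) and Pdk4 (0.9993), and with Cdh13 Cpxm2 (0.9999), Scara5 (0.9998) and Antxr2 (0.9997). For Cdh3 they were Cxcl16 (0.9980), Gjb2 (0.9924) and Aspn (0.9914). For Gja1 and Cdh11 this minimum left out the genes most like them: the highest that remained were Mmp12 (0.9602), Ddit3 (0.9560) and Chac1 (0.9468) with Gja1, and Fos (0.6551), Ephb3 (0.6366) and Matn4 (0.6286) with Cdh11.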

How the data were processed

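Each of the 6 libraries has a column of FPKM, as made and deposited by the authors. The submitters' processing notes name HISAT2, HTSeq, R 3.2.0 and build GRCm39; information on the annotation, any filter and the use of strand, on which counts of overlapping genes depend, is not given in the sources used here. Whole reads were worked back from the FPKM steps for 22972 of 22984 genes (within 0.01 reads). FPKM were used as deposited. Genes with a mean of at least 1 FPKM were fitted on log2(FPKM + 1) with limma 3.58.1 in R 4.3.3 (eBayes with trend), Grx2-/- against Grx2+/+, with Benjamini-Hochberg adjustment over all 11083. The scale understates changes of low genes. The fit was tested on simulated data, and alternatives in pseudocount, filter, scaling, variance model, replicate block, threshold and libraries kept, and voom on the recovered reads, were run. Named genes are the members, up to 4 per list with the smallest p, the 3 most correlated genes per tested member, and others said to be named after their values were seen, as also Epcam, Krt5, Trp63, Krt15, Tek, Vwf, Gja5, Cdh1, Myod1, Pax7, Ctnna1 and Adam10; not all that the rule allows are printed. Members and the 20 gene lists were chosen with earlier results of these data known. Promoters came from RefSeq (GRCm38.p6), another build than the authors', which matched 2 of 7 members. Intervals of reads cover counting error only. Figures were drawn with matplotlib 3.10.9.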

Additional observations from a re-analysis of the deposited data

How the results depend on the processing

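Of all tested genes, 7465 were called (4737 higher and 2728 lower in Grx2-/-), and a 2-fold minimum left 1111 (719 and 392). With 1 library left out the count ran from 6556 to 7542. The share of calls that were higher was 63.5%, 51.4% with median-of-ratios scaling and 46.4% with quantile normalization. The median of all tested genes moved by -0.08 with median-of-ratios scaling and by -0.11 with quantile normalization. Of the members, 4 were called (2 higher and 2 lower), also with each library left out and with the replicate number as a block. With a mean of at least 5 FPKM, under which Cdh3 and Cdh13 could not be fitted, 2 members were called, 0 of them higher; a 2-fold minimum left 2, 1 higher and 1 lower. No filter on low values added Cdh15. The replicate block gave 4 calls; same-numbered libraries correlated at 0.107, 0.124 and 0.0199 in their deviations, so the numbers were not taken as pairs. Cdh11, not called in any setting (adjusted p 0.0999 to 0.899, limma; -0.0079 to 0.13 with 1 library left out), turned below 0 with median-of-ratios scaling (-0.016), quantile normalization (-0.047), without Grx2-/- replicate 1 (-0.0079) and without both that library and Grx2+/+ replicate 2 (-0.0052), a setting added after the data were seen; the cause of the first 2 was not tested. Over the alternatives Cdh2 ran from -1.17 to -1.02, Cdh3 from 0.81 to 1.29, Cdh13 from 1.28 to 2.04 and Gja1 from -0.54 to -0.30, with adjusted p of at most 0.0397; Gja1 stayed under 2-fold in these, while Cdh3, under it as reported (0.91), passed it without Grx2-/- replicate 1 (1.06), without that library and Grx2+/+ replicate 2 (1.01), with pseudocounts of 0.1 and 0.01 (1.24 and 1.28) and with voom (1.29). Cdh4 and Cdh15 are limited by depth.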
